A study of Sus scrofa with 22 samples.

Results

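The fatty acid desaturases and elongases described here are 7 genes, SCD, FADS1, FADS2, ELOVL1, ELOVL5, ELOVL6 and ELOVL7, measured by RNA sequencing in the jejunal mucosa of 22 Ossabaw pigs. They were found by gene name, and all 7 listed genes were present among the 24358 genes of the count files. The genes were chosen by their levels over the 3 diet groups of these same libraries, as CPM, the count of a gene scaled to a common library total. Their levels and fold changes between those groups are therefore given as a description, with no test.

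Desaturases place double bonds into fatty acyl chains, and elongases lengthen the chains in the endoplasmic reticulum. SCD makes oleate and palmitoleate from saturated chains, while FADS2 and FADS1 act in turn on dietary linoleate and alpha-linolenate to form arachidonic acid and eicosapentaenoic acid (EPA). In mouse and human cells, SREBP-1, the product of SREBF1, drives transcription of SCD, FADS1, FADS2 and ELOVL6. Polyunsaturated fatty acids lower it, and the sterol-sensing receptor LXR also induces SCD. The small intestine takes up dietary fat and also remodels it before packing it into lipoproteins.

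Ossabaw pigs become obese and insulin resistant on rich diets and are used as a model of human metabolic disease. Pigs labelled WD_S (n = 7) ate a Western pattern rich in butter fat, cholesterol, sugar and white flour and received atorvastatin, an inhibitor of cholesterol synthesis. Pigs labelled HHD_S (n = 8) received atorvastatin with a heart healthy pattern of vegetable oils, whole grains, fruit, vegetables and fibre, plus fish oil capsules. Pigs labelled HHD (n = 7) ate the heart healthy pattern with its capsules and had no drug. The patterns lasted 6 months after a gradual change from a common grower feed, and both provided 38% of energy as fat, 47% as carbohydrate and 15% as protein. Atorvastatin was given at 20 mg per day for 3 months and at 40 mg per day for the last 3 months. Each fish oil capsule of 1000 mg held 550 mg EPA and 200 mg docosahexaenoic acid (DHA), and 3 were given per week. WD_S and HHD_S thus differ in the whole dietary pattern, fish oil included. WD_S and HHD differ in both pattern and drug, which cannot be told apart in that comparison. The series text uses the abbreviation found in the WD_S titles for Western feeding without drug. The sample labels name the drug for those pigs, and the labels were followed. Western feeding without atorvastatin was not analysed here, and sex was not labelled pig by pig in a study of 16 boars and 16 gilts.

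Each library came from a separately numbered pig and held 15.3 to 31.6 M unique exon reads, and 13626 genes passed the filter on low counts. All 7 desaturase and elongase genes passed it in full, the lowest count in any library being 124 for FADS1. Enterocyte markers were abundant, with mean levels of 17800 CPM for APOA1, 8180 CPM for ANPEP and 6920 CPM for SI. The enterocyte score, the mean log2 CPM of 12 markers centred per gene, was lowest in libraries HHD_S 3 and HHD_S 8 (-1.05 and -0.67). Libraries were made in pools 3 and 4, with 13 and 9 pigs, and each pool held pigs of every group. The 5 pigs with the highest numbers, called late here, differed from the 17 others, called early, at 762 of 13626 genes (5.59%) past an adjusted p of 0.05 (edgeR).

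SCD lies on chromosome 14, from 111461560 to 111478033 in the Sscrofa11.1 build, the span of the RefSeq gene. It had the largest fold changes of the set between WD_S and each heart healthy group. Its lowest, median and highest levels were 26.0, 77.0 and 122 CPM in WD_S, against 7.88, 21.8 and 57.9 CPM in HHD_S and 12.4, 16.1 and 31.1 CPM in HHD. The Western-fed pigs were mostly high, 6 of 7 lying above every HHD pig and 4 of 7 above every HHD_S pig. The groups overlapped, since WD_S 1 stood at 26.0 CPM. Means were 73.6 ± 36.9 CPM in WD_S, 25.7 ± 19.4 CPM in HHD_S and 20.6 ± 8.41 CPM in HHD (SD, n = 7, 8 and 7). The fitted log2 fold change was 1.40 (SE 0.423) for WD_S over HHD_S, a fold of 2.63, and 1.71 (SE 0.445) for WD_S over HHD, a fold of 3.28. In bulk mucosa fewer cells of a type and less RNA per cell cannot be told apart.

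The SCD differences of WD_S from both heart healthy groups had the same sign in each library pool. WD_S over HHD_S gave 1.36 in pool 3 and 1.52 in pool 4, and WD_S over HHD gave 1.86 in pool 3 and 1.45 in pool 4 (log2). Between HHD_S and HHD, which differ in the drug, the log2 fold change was 0.32 (SE 0.417), with 0.50 in pool 3, -0.07 in pool 4 and -0.10 without HHD_S 2. The HHD_S pigs fell on both sides of the HHD pigs, with 2 above all of them and 3 below all of them. Those 3 were HHD_S 3, HHD_S 4 and HHD_S 8, at 8.28, 8.42 and 7.88 CPM. HHD_S 3 and HHD_S 8 are the libraries with the lowest enterocyte scores, while HHD_S 4 had 0.25, above the HHD_S median of 0.08. Without HHD_S 3 and HHD_S 8 the SCD log2 fold change of WD_S over HHD_S was 1.08 (SE 0.384).

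FADS1, on chromosome 2 (9735425 to 9747405), carries out the last desaturation on the way to arachidonic acid and EPA, and it ran the other way from SCD. Its lowest, median and highest levels were 8.22, 10.6 and 11.9 CPM in WD_S, against 10.8, 14.7 and 17.3 CPM in HHD_S and 11.2, 18.0 and 21.1 CPM in HHD. All 7 WD_S pigs lay below the median of each heart healthy group, 4 of them below every HHD_S pig and 5 below every HHD pig. The groups overlapped, since HHD_S 4 (10.8 CPM), HHD_S 6 (11.1 CPM), HHD_S 8 (11.6 CPM) and HHD 6 (11.2 CPM) lay within the WD_S range. Means were 10.2 ± 1.43 CPM in WD_S, 14.2 ± 2.66 CPM in HHD_S and 16.9 ± 3.35 CPM in HHD (SD, n = 7, 8 and 7). The log2 fold change was -0.48 (SE 0.144) for WD_S over HHD_S, -0.25 (SE 0.14) for HHD_S over HHD and -0.73 (SE 0.149) for WD_S over HHD. Pool 3 alone gave -0.46, -0.12 and -0.58 for these comparisons in turn, and pool 4 alone gave -0.43, -0.55 and -0.98.

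FADS2, the desaturase that starts the polyunsaturated pathway, lies 68.8 kb from FADS1 on the same chromosome (9633941 to 9666666). Its levels were 8.27, 9.76 and 14.6 CPM (lowest, median and highest) in WD_S, against 7.50, 12.5 and 17.3 CPM in HHD_S and 10.5, 13.6 and 16.6 CPM in HHD. The WD_S pigs were mostly low, 5 of 7 lying below every HHD pig, but WD_S 1 was at 14.6 CPM. The HHD_S pigs spread beyond both ends of the WD_S range, from HHD_S 4 at 7.50 CPM to HHD_S 5 at 17.3 CPM. Means were 10.4 ± 2.10 CPM in WD_S, 12.3 ± 2.93 CPM in HHD_S and 13.9 ± 2.38 CPM in HHD (SD, n = 7, 8 and 7). The log2 fold change was -0.25 (SE 0.159) for WD_S over HHD_S, -0.17 (SE 0.156) for HHD_S over HHD and -0.41 (SE 0.166) for WD_S over HHD.

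ELOVL6, on chromosome 8 (112038670 to 112190079), extends palmitate to stearate, a substrate of SCD. Its levels were 19.5, 25.3 and 29.0 CPM (lowest, median and highest) in WD_S, against 16.1, 23.1 and 121 CPM in HHD_S and 26.9, 38.6 and 118 CPM in HHD. The WD_S pigs lay close together, with a coefficient of variation of 14.7%, against 91.5% in HHD_S and 63.1% in HHD. HHD_S 7 (121 CPM) and HHD 4 (118 CPM) stood far above the others of their groups, and 6 of 7 WD_S pigs lay below every HHD pig. The log2 fold change was -0.71 (SE 0.428) for WD_S over HHD_S, -0.39 (SE 0.402) for HHD_S over HHD and -1.10 (SE 0.425) for WD_S over HHD. Without HHD_S 7 the WD_S over HHD_S value was -0.23 and that of HHD_S over HHD was -0.92. Without HHD 4 the WD_S over HHD value was -0.54 and that of HHD_S over HHD was 0.00. WD_S over HHD_S was -1.18 (SE 0.548) in pool 3 alone and 0.14 (SE 0.414) in pool 4 alone. HHD_S over HHD was 0.15 (SE 0.452) in pool 3 alone and -1.60 (SE 0.485) in pool 4 alone. HHD_S 7 was in pool 3, and HHD 4 was 1 of the 2 HHD pigs in pool 4.

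ELOVL5, on chromosome 7 (46860768 to 46932945), elongates polyunsaturated chains between the FADS2 and FADS1 steps. It stood at 13.8 ± 1.98 CPM in WD_S, 14.2 ± 4.08 CPM in HHD_S and 15.5 ± 2.44 CPM in HHD (SD, n = 7, 8 and 7). The 3 groups overlapped widely, between 10.2 and 19.6 CPM over all pigs. Its log2 fold changes were -0.03 (SE 0.157) for WD_S over HHD_S, -0.12 (SE 0.156) for HHD_S over HHD and -0.15 (SE 0.166) for WD_S over HHD.

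ELOVL1, on chromosome 6 (167881357 to 167886125), makes the very long saturated chains used in sphingolipids. It stood at 36.9 ± 9.73 CPM in WD_S, 31.3 ± 10.7 CPM in HHD_S and 38.5 ± 13.7 CPM in HHD (SD, n = 7, 8 and 7). Its log2 fold changes were 0.19 (SE 0.234), -0.30 (SE 0.226) and -0.11 (SE 0.244) in the same order of comparisons. ELOVL7, on chromosome 16 (39588122 to 39680273), also elongates saturated chains and stood at 138 ± 22.2 CPM in WD_S, 126 ± 23.3 CPM in HHD_S and 127 ± 20.7 CPM in HHD (SD, n = 7, 8 and 7). Its log2 fold changes were 0.15 (SE 0.129), -0.01 (SE 0.127) and 0.14 (SE 0.135). Both genes overlapped across all groups. CPM are not scaled for transcript length, so levels are compared here between pigs and not between genes.

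**Figure D1:**
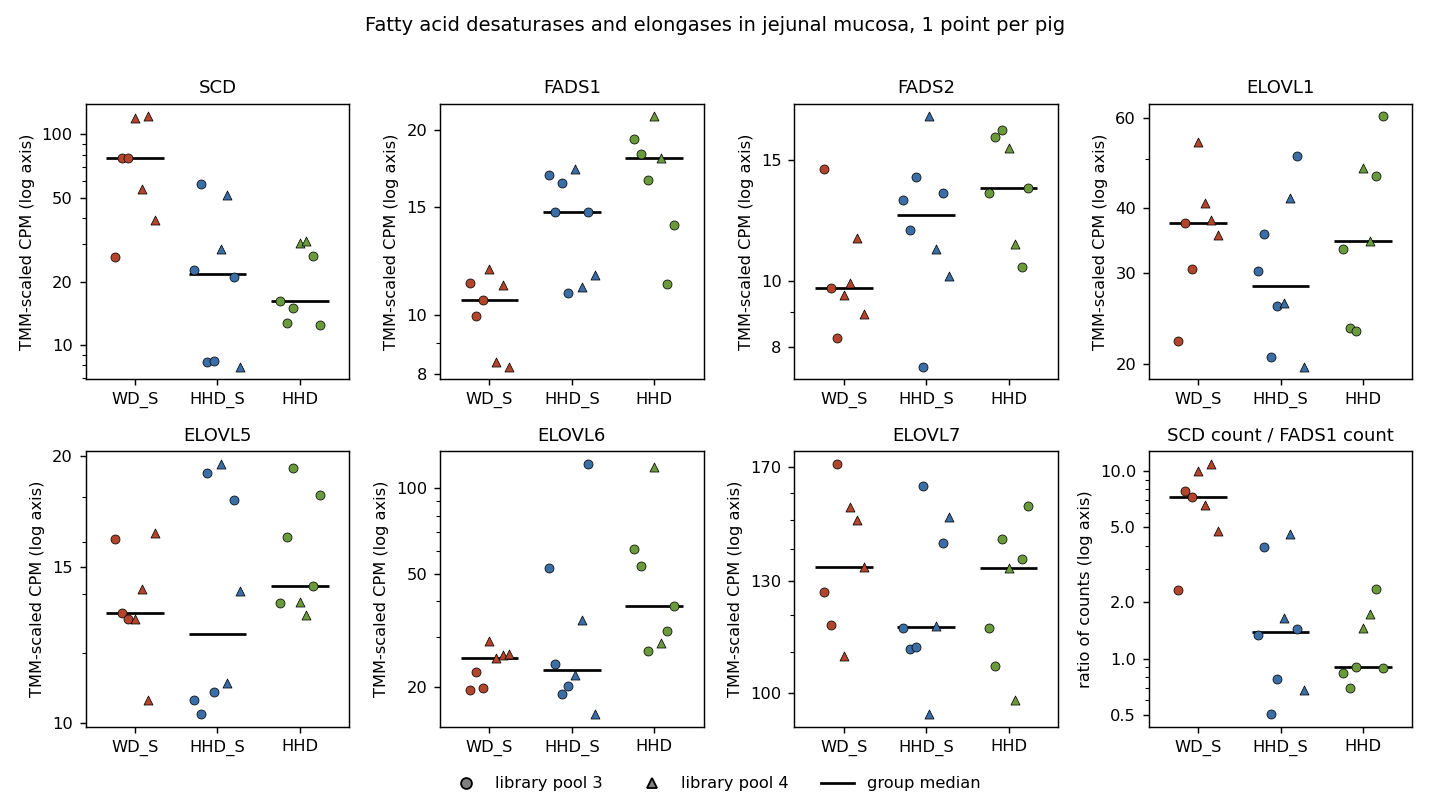
TMM-scaled CPM (log axes) of the 7 genes and the ratio of SCD to FADS1 counts in each of 22 pigs, by group; circles are library pool 3, triangles pool 4 and bars group medians. SCD was mostly high and FADS1 mostly low in WD_S, while ELOVL6 had a single high pig in HHD_S (121 CPM) and in HHD (118 CPM).

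The contrast between SCD and FADS1 can be read within each library, where scaling between libraries plays no part. The ratio of SCD to FADS1 counts was 2.31, 7.30 and 10.9 (lowest, median and highest) in WD_S, against 0.505, 1.38 and 4.62 in HHD_S and 0.694, 0.899 and 2.35 in HHD. WD_S 1, at 2.31, was the single Western-fed pig inside the range of the HHD pigs. The ratio of SCD to ELOVL6 counts had medians of 3.43 in WD_S, 0.464 in HHD_S and 0.321 in HHD. The ratio of FADS2 to FADS1 counts had medians of 1.03 in WD_S, 0.869 in HHD_S and 0.886 in HHD. These ratios use the values by which the genes were chosen.

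Over all genes, edgeR called 0 of 13626 (0.00%) for WD_S against HHD_S at an adjusted p under 0.05, with 398 at an unadjusted p under 0.05. DESeq2 called 4 and limma voom 1. For HHD_S against HHD edgeR called 0 (0.00%), with 247 at an unadjusted p under 0.05, DESeq2 1 and limma voom 0. For WD_S against HHD edgeR called 1 gene (0.00734%), the cholesterol exporter ABCG1, while DESeq2 called 2 and limma voom 1. None of the 7 desaturase and elongase genes was called by edgeR in any of these comparisons, and DESeq2 called FADS1 in WD_S against HHD. As these comparisons chose the genes, nothing is read from these calls. The comparisons share libraries, WD_S in 2 of them, HHD_S in 2 and HHD in 2, so their fold changes are not independent of each other.

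**Figure D2:**
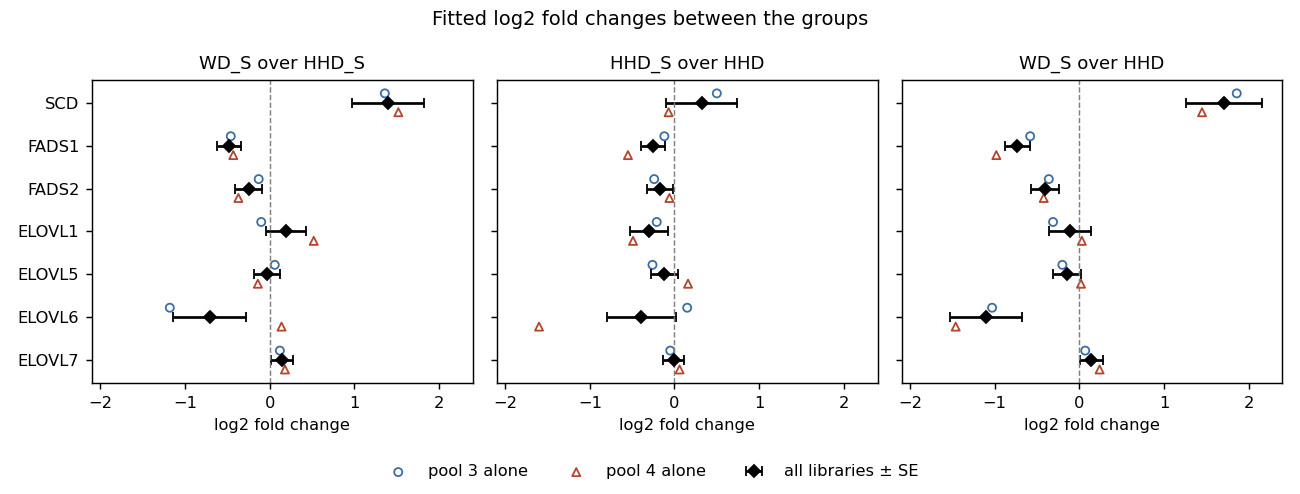
Fitted log2 fold changes (diamonds, bars ± SE, 22 libraries) of the 7 genes for WD_S over HHD_S, HHD_S over HHD and WD_S over HHD, with the values of pool 3 alone (circles) and pool 4 alone (triangles). SCD lay at 1.40 and 1.71 and FADS1 at -0.48 and -0.73 in the comparisons of WD_S with the heart healthy groups. The ELOVL6 fold change for WD_S over HHD_S was -1.18 in pool 3 and 0.14 in pool 4.

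The genes differed in how much they varied between pigs of the same group. The biological coefficient of variation fitted by edgeR was 54.3% for SCD and 52.4% for ELOVL6, against 25.9% in common over all genes. Both stood at percentile 98.9 among genes of similar abundance, within 0.5 log2 CPM of them. ELOVL1 had 30.8% (percentile 92.7). FADS1 at 19.5%, FADS2 at 21.5%, ELOVL5 at 21.4% and ELOVL7 at 18.5% lay between percentiles 46.0 and 59.8 of genes of similar abundance. The most variable genes of the set were thus SCD and ELOVL6, though the CPM of ELOVL6 in WD_S had a coefficient of variation of 14.7%. SCD spanned a 4.67-fold range in WD_S, 7.34-fold in HHD_S and 2.51-fold in HHD. FADS1 spanned 1.44-fold, 1.59-fold and 1.88-fold in the same groups. Over all pigs, group differences included, SCD spanned a 15.4-fold range and FADS1 a 2.56-fold range.

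Covariation between pigs of the same group was not used to choose the genes and was tested on log2 CPM with each group's mean removed. Among 21 pairs, 1 passed an adjusted p of 0.05 in a two-sided permutation test that shuffled libraries within groups. FADS1 and FADS2 varied together with Pearson r = 0.658 (permutation p = 0.00111, adjusted p = 0.0233) and Spearman rho = 0.663 (permutation p = 0.00158, adjusted p = 0.0332) over 22 pigs. The r was 0.393 in WD_S, 0.867 in HHD_S and 0.582 in HHD, and 0.744 in pool 3 and 0.778 in pool 4. Without the 2 pigs farthest from the FADS1 median it was 0.511. Leaving out HHD_S 4, HHD_S 5, HHD_S 8, HHD 4 or HHD 6 ended the call, with r between 0.604 and 0.65. In the 17 early pigs r was 0.597 and did not pass.

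The other 20 pairs had r between -0.526 and 0.587, with no adjusted p under 0.0673. The r of SCD was 0.187 with FADS1 and -0.008 with FADS2, so neither relation passed the test. The highest value among these pairs was that of SCD and ELOVL1 (r = 0.587, permutation p = 0.00641, adjusted p = 0.0673), with 0.735 in WD_S, 0.709 in HHD_S and 0.301 in HHD. The lowest was that of FADS1 and ELOVL7 (r = -0.526, permutation p = 0.0182, adjusted p = 0.0954), with negative values in all 3 groups.

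**Figure D3:**
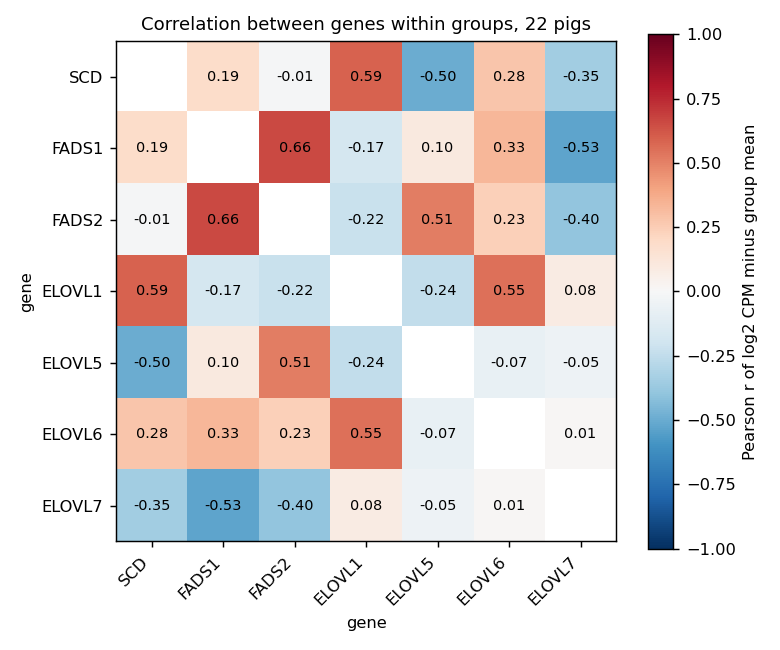
Pearson r between the log2 CPM of each pair of the 7 genes after removal of group means, over 22 pigs; red is positive and blue negative. FADS1 and FADS2 (0.66) are the pair that passed the permutation test, and SCD with ELOVL1 (0.59) is the next highest.

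FADS2 varied with a score of macrophage and dendritic cell markers from pig to pig. Each gene was set against an enterocyte score, a macrophage and dendritic score, an adipocyte score and the library total, which made 28 relations, and 1 passed in Pearson r. FADS2 and the macrophage and dendritic score, the mean log2 CPM of 11 markers centred per gene, had r = 0.807 over 22 pigs. Its permutation p of 1e-05 is the smallest that 100000 resamples can give (adjusted p = 0.00028). Spearman rho was 0.779 (permutation p = 0.00011, adjusted p = 0.00308). The r was 0.638 in WD_S, 0.856 in HHD_S and 0.97 in HHD, 0.897 in pool 3 and 0.55 in pool 4, and 0.704 without the 2 pigs farthest from the median score. It passed with each library left out in turn, with r between 0.753 and 0.838.

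By single marker, FADS2 had positive r with 11 of 11, from 0.012 for AIF1 to 0.754 for CSF1R, the receptor that macrophages need for survival. CD68, a lysosomal protein of macrophages, had 0.747, and the complement subunits C1QA, C1QB and C1QC had 0.691, 0.726 and 0.639. CD163, another macrophage marker, had 0.053. The share of all genes that vary with these markers as closely is not given here. FADS1 had positive r with 9 of 11, ELOVL5 with 9, ELOVL6 with 8, SCD with 4, ELOVL7 with 2 and ELOVL1 with 1. For ELOVL5 the score relation passed by rho (0.608, permutation p = 0.00327, adjusted p = 0.0458) but not by r (0.56, permutation p = 0.00489, adjusted p = 0.0606). Total count scaling in place of TMM gave calls for FADS1 (r = 0.644) and ELOVL5 (r = 0.705) as well.

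Between the groups the median score was highest in WD_S, where the median of FADS2 was lowest. Its lowest, median and highest values were -0.18, 0.16 and 0.52 in WD_S, against -0.62, -0.07 and 0.14 in HHD_S and -0.47, -0.03 and 0.49 in HHD. The summed level of the listed markers was 792, 1190 and 1460 CPM in WD_S, 657, 983 and 1170 CPM in HHD_S and 632, 1020 and 1330 CPM in HHD. All 11 tested markers had positive fold changes for WD_S over HHD_S (median log2 0.22, against -0.01 over all genes), and edgeR called none at an adjusted p under 0.05. For WD_S over HHD 9 were positive and 2 negative (median log2 0.14), with none called. CD163 averaged 29.7 CPM in WD_S against 38.3 CPM in HHD, and FLT3 11.2 CPM against 14.7 CPM. The twelfth listed marker, MARCO, never exceeded 14 counts. The part of these cells in the FADS2 differences was not tested.

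**Figure D4:**
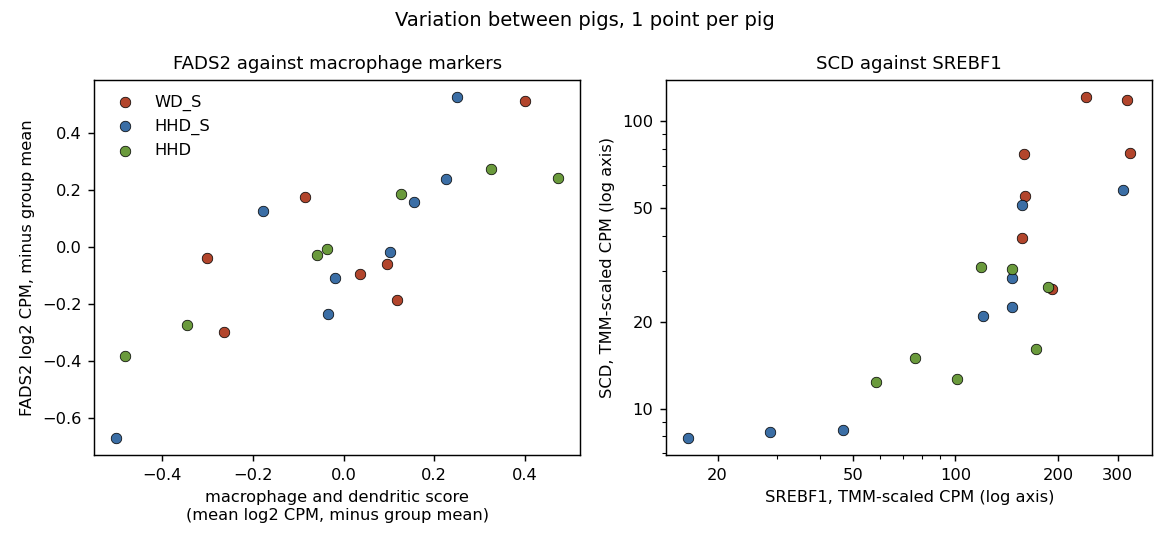
Left, FADS2 log2 CPM against the macrophage and dendritic score, both minus their group means (r = 0.807, 22 pigs). Right, SCD against SREBF1 in CPM on log axes, with group means not removed. HHD_S 3, HHD_S 4 and HHD_S 8 lie lowest for both genes, and SREBF1 was picked for its high r with SCD. Each point is a pig, coloured by group.

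The genes most like SCD within groups were taken, by r over 22 pigs, from 11024 named genes whose mean log2 CPM was 1 or more. They were ACE (0.828), the angiotensin-converting enzyme of the brush border, ARAF (0.815), a RAF kinase, SREBF1 (0.808), EPS8L3 (0.801) and PHLDB3 (0.79). SREBF1 stood at 222 ± 75.0 CPM in WD_S, 122 ± 95.5 CPM in HHD_S and 123 ± 48.3 CPM in HHD (SD, n = 7, 8 and 7). Its log2 fold change was 0.89 (SE 0.456) for WD_S over HHD_S, -0.01 (SE 0.447) for HHD_S over HHD and 0.88 (SE 0.475) for WD_S over HHD, and edgeR called none of them (adjusted p at least 0.9993). The pigs lowest in SCD were also lowest in SREBF1, at 28.4 CPM in HHD_S 3, 46.8 CPM in HHD_S 4 and 16.4 CPM in HHD_S 8. SREBF1 was picked here for its high r with SCD over the same pigs, so this overlap carries no test. A part of SREBF1 in the SCD levels was not tested. The r of SCD and SREBF1 was 0.584 in WD_S, 0.927 in HHD_S and 0.632 in HHD, and 0.748 without HHD_S 3 and HHD_S 8.

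Most like FADS1 were JAML (0.805), an adhesion molecule of leukocytes, RALGDS (0.796), an exchange factor of Ral GTPases, the chemokine CXCL14 (0.778), LBH (0.758) and the adenosine receptor gene ADORA2A (0.749). FADS2, at 0.658, stood at rank 76. None of these 5 was called between groups, and their log2 fold changes for WD_S over HHD lay between -0.22 for CXCL14 and 0.04 for LBH.

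Most like ELOVL6 were RDH11 (0.862), a retinal reductase, SEC24C (0.859) and SEC13 (0.855), coat proteins of vesicles leaving the endoplasmic reticulum, NAV2 (0.859) and MTTP (0.853), which loads lipid onto apolipoprotein B. MTTP was highest in the pigs where ELOVL6 was highest, at 2200 CPM in HHD_S 7 and 1985 CPM in HHD 4. The r of ELOVL6 and MTTP was -0.03 in WD_S, 0.871 in HHD_S and 0.937 in HHD. Without HHD_S 7 and HHD 4 it was 0.699, and the r of the other 4 genes lay between 0.689 for SEC13 and 0.798 for SEC24C. These values describe 22 pigs, share libraries, and carry no test since the genes were picked as the highest.

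Library pool and pig number were tested as contrasts that had no part in choosing the genes. Pool 4 against pool 3 gave 0 called genes of 13626 (0.00%) by edgeR, with 602 at an unadjusted p under 0.05, and 0 of the 7 genes. SCD had the largest difference of the set, 0.54 (SE 0.352, edgeR adjusted p = 0.9159). Late against early pigs gave 762 called genes (5.59%), again with 0 of the 7. FADS1 had a median of 11.6 CPM in the 5 late pigs and 14.7 CPM in the 17 early pigs, with a log2 fold change of -0.35 (SE 0.125, edgeR adjusted p = 0.1021). SCD lay between 7.88 and 39.3 CPM in the late pigs and between 8.28 and 122 CPM in the early pigs (-0.55, SE 0.436, edgeR adjusted p = 0.4863). With pig number as a further term the SCD log2 fold change was 1.36 for WD_S over HHD_S and 1.59 for WD_S over HHD, and that of FADS1 was -0.52 and -0.77.

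Of 8 other desaturases and elongases, 5 were tested. DEGS1, a ceramide desaturase, averaged 91.8 CPM over all pigs, DEGS2 12.9 CPM, FADS3 3.91 CPM, SCD5 2.10 CPM and ELOVL4 1.47 CPM. ELOVL2, ELOVL3 and FADS6 did not pass the filter, with highest counts of 13, 3 and 14. In mouse liver ELOVL2 makes precursors of DHA. DEGS2 averaged 16.1 ± 3.73 CPM in WD_S, against 10.3 ± 2.74 CPM in HHD (SD, n = 7 each; log2 fold change 0.71, SE 0.212, edgeR adjusted p = 0.9997). ELOVL4, which makes very long polyunsaturated chains, stood at 1.16 ± 0.243 CPM in WD_S and 1.77 ± 0.298 CPM in HHD (SD, n = 7 each; -0.59, SE 0.183, edgeR adjusted p = 0.9997). None of the 5 was called in any comparison.

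The enzymes that serve the desaturases and elongases showed no called difference. Of 10 tested genes of the elongation cycle and its electron supply, 0 were called in any comparison (2 more listed genes were not tested), and 5 were positive and 5 negative for WD_S over HHD_S. HSD17B12, a reductase of the cycle, had the smallest p of this list for WD_S over HHD. It stood at 103 ± 15.6 CPM in WD_S and 121 ± 21.1 CPM in HHD (SD, n = 7 each; log2 fold change -0.20, SE 0.158). Of 10 tested genes of fatty acid synthesis, 0 were called and 6 were positive for WD_S over HHD_S, with a median of 0.03. MID1IP1, which activates acetyl-CoA carboxylase, led this list at 21.5 ± 4.50 CPM in WD_S against 16.1 ± 1.55 CPM in HHD_S (SD, n = 7 and 8; log2 fold change 0.38, SE 0.12, edgeR adjusted p = 0.9995).

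Among the regulators, 9 genes of the SREBP and ChREBP list had a median log2 fold change of 0.00 for WD_S over HHD_S and 0.13 for WD_S over HHD, with none called. MLXIPL, which encodes the carbohydrate-responsive factor ChREBP, averaged 90.3 ± 40.3 CPM in WD_S, against 60.9 ± 17.9 CPM in HHD_S (SD, n = 7 and 8; 0.57, SE 0.23, edgeR adjusted p = 0.9995). Of 10 LXR genes and targets other than SCD, 9 were positive for WD_S over HHD_S (median 0.16) and 8 for WD_S over HHD (median 0.18, against 0.00 over all genes). ABCG1 was the called gene among them, higher in WD_S at 31.9 ± 5.67 CPM than in HHD at 17.8 ± 2.02 CPM (SD, n = 7 each), by 0.84 on the log2 scale (SE 0.135, edgeR adjusted p = 0.04098). Its call was lost in 17 of 22 fits that left out 1 library. Of 17 PPAR receptors and targets, which respond to fatty acids, 12 were negative for WD_S over HHD_S and 12 for WD_S over HHD, with medians of -0.04 and -0.15 and none called.

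Genes that use the products were also without a call. Among 11 genes of phospholipid acyl remodelling, MBOAT2, an acyltransferase that prefers oleate, stood at 35.9 ± 11.1 CPM in WD_S and 70.1 ± 52.2 CPM in HHD (SD, n = 7 each; -0.92, SE 0.362, edgeR adjusted p = 0.9997). MBOAT1 of the same family stood at 28.2 ± 3.35 CPM in WD_S and 22.9 ± 3.11 CPM in HHD (SD, n = 7 each; 0.30, SE 0.104, edgeR adjusted p = 0.9997). Of 9 acyl-CoA synthetases and transporters, 4 were positive and 5 negative for WD_S over HHD, with a median of -0.07. Of 8 genes that place monounsaturated chains into triglyceride and cholesterol esters, 6 were negative in that comparison (median -0.08), and the 6 tested genes of peroxisomal DHA retroconversion were evenly divided, 3 positive and 3 negative (median 0.01).

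Adipocytes are rich in SCD, and their listed markers ranged widely in level. ADIPOQ and LEP, the hormones of these cells, reached at most 3 and 1 counts in any library, and the lipid droplet proteins PLIN1 and PLIN4 at most 16 and 13. The 4 of 9 listed markers that were tested averaged 55.8 CPM for CIDEC, 13.6 CPM for LIPE, 2.70 CPM for FABP4 and 0.67 CPM for CIDEA. The summed level of this list was 41.8, 64.5 and 82.3 CPM (lowest, median and highest) in WD_S, 31.6, 86.8 and 111 CPM in HHD_S and 37.6, 69.1 and 126 CPM in HHD. Within groups SCD had r = 0.627 with the adipocyte score (permutation p = 0.00649, adjusted p = 0.0606) and r = 0.483 with the enterocyte score (permutation p = 0.047, adjusted p = 0.132), neither of which passed.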

How the data were processed

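Jejunal mucosa RNA (quality indicator above 8) from 22 pigs was sequenced as single reads of 150 bases and processed by the authors in a CLC workbench against Sscrofa11.1, per the labels' protocols. Per the file headers, the deposited files give the count of unique exon reads for each gene, so reads that match several places are absent. How reads were mapped is not given in the sources used here. The files named 17332 of 24358 genes, a table of gene names added 1073, and 5953 had no name. Coordinates are RefSeq gene spans.

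Groups came from the diet label and pools from the deposited file names. Late pigs are those numbered 2350 or above in the titles. Over 231 library pairs the smallest reduced chi-square was 25.2, so no library was counted as a repeat.

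The test was edgeR 4.0.16 under R 4.3.3 (filterByExpr, minimum count 10; TMM; group plus pool; robust quasi-likelihood; Benjamini-Hochberg adjustment over all 13626 genes; 18 residual degrees of freedom). CPM are TMM-scaled, and log2 CPM used a prior count of 2. Counts were simulated for WD_S against HHD_S over 13541 genes. The shares called were 40.3% at a 1.5-fold change, 88.1% at 2-fold and 97.0% at 3-fold. The changed genes, 67, 67 and 66 at these sizes, were drawn from those with mean log2 CPM of 1 or more and changed together. Genes were simulated independently and without a pool effect. The shares are over such genes and do not give the chance of a call for SCD or ELOVL6, whose variation was high. Alternatives used DESeq2 1.42.0, limma 3.58.1, other scalings, filters and terms, each pool and each library left out.

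The 7 genes and all lists were chosen with earlier results of these data known. Named list genes were those called, or otherwise the 2 with the smallest p per comparison, of which some are given. The 5 genes most like SCD, FADS1 and ELOVL6 were those with the highest within-group r. No paired analysis was possible because the labels give each pig its own number. Some genes are not reported here.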

Additional observations from a re-analysis of the deposited data

Results flagged for a closer look

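For each of the 7 genes in each of the 3 groups, which makes 21 sets of values, the gap between the most extreme pig and its nearest neighbour was compared with the range of the group (Dixon's test at 95%). Chance marks about 1 in 20 such sets where values are normally distributed. CPM were used without a log, so the marks hold for that scale only. Of the 21 sets, 2 were marked, both of ELOVL6. The first is HHD_S 7, at 121 CPM the highest of 8 pigs, against a median of 23.1 CPM in HHD_S. The second is HHD 4, at 118 CPM the highest of 7 pigs, against a median of 38.6 CPM in HHD. Both pigs were also the highest of their groups in MTTP, at 2200 CPM in HHD_S 7 and 1985 CPM in HHD 4. MTTP was picked for its high r with ELOVL6 over these same pigs, so this is no separate support for either value.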

How the results depend on the processing

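Over 36 alternatives for each gene and comparison, the log2 fold change of WD_S over HHD_S and of WD_S over HHD stayed positive for SCD and negative for FADS1 and FADS2 in all. That of ELOVL6 stayed negative for WD_S over HHD in all, and its sign for WD_S over HHD_S turned in 1 of 36, pool 4 alone (0.14). Pool 4 alone, with 4, 3 and 2 pigs of WD_S, HHD_S and HHD, also moved HHD_S over HHD to -0.55 for FADS1 and -1.60 for ELOVL6, which was 0.15 in pool 3 alone. Signs for HHD_S over HHD were kept in 34 of 36 for SCD and for ELOVL6. ELOVL1 kept its sign in 35 of 36 for WD_S over HHD_S and in 31 for WD_S over HHD, ELOVL5 in 28 and 35, and ELOVL7 in all 36 for both but in 28 for HHD_S over HHD. No alternative moved the median log2 fold change of all genes by over 0.1. With 1 library left out, SCD lay between 1.21 and 1.76 for WD_S over HHD_S and FADS1 between -0.54 and -0.42. For WD_S against HHD_S the genes called were 4 with DESeq2 (with and without independent filtering), 1 with limma voom, 2 without the pool term, 2 with pig number as a term, 2 without the late pigs, 1 without HHD_S 3 and HHD_S 8, and 0 to 2 with 1 library left out. For HHD_S against HHD, DESeq2 called 1. For WD_S against HHD the calls were 2 with DESeq2 and 2 with pig number as a term, of which 1 in each was FADS1, 0 with total counts, 0 in each pool alone and 0 to 1 with 1 library left out. Total counts gave 2 gene pairs and 3 score relations. The relation of FADS1 and FADS2 had r = 0.597 in early pigs and did not pass, and lay between 0.604 and 0.704 with 1 library left out, when 0 to 3 pairs passed. Early pigs alone gave 2 score relations, ELOVL5 with the adipocyte score being the second, and leaving out 1 library gave 1 to 4. The cause of these changes was not tested. The fits without late pigs, without HHD_S 3 and HHD_S 8 and in early pigs, and the scores with 1 library left out, were chosen after the data had been seen.

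Precision is limited by 7 or 8 pigs in a group. Sex could not be fitted, since no label gives it.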
